A study of Mus musculus with 1078 samples.

Results

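The cells described here are the malignant cells of GL261 mouse gliomas from mice given losartan+anti-PD1 and from mice given losartan alone. They are the cells that the authors labelled Malignant on 4 plates, 1 for each treatment in each of the CD31-positive and CD45-negative sorts. There were 51 losartan+anti-PD1 cells and 25 losartan cells in the CD31-positive sort, and 44 losartan+anti-PD1 cells and 47 losartan cells in the CD45-negative sort. Together these are 63% of the cells labelled malignant and 15.5% of the 1078 cells of all types in the series.

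GL261 is an established mouse glioma line that grows in the brain of immunocompetent C57Bl/6 mice, so every tumor came from the same line and none arose in its own host. Losartan blocks the angiotensin II type 1 receptor and is used against high blood pressure. Anti-PD1 is an antibody against PD1, an inhibitory receptor on T cells. In the study's treatment scheme, losartan was begun before the antibody and mice without anti-PD1 received an IgG in its place, so the groups share losartan and differ in the antibody. The comparison asks what adding anti-PD1 on a losartan background did to the tumor cells. Cells of dissociated tumors were stained for CD45, CD3 and CD31 and sorted singly, and full-length Smart-seq2 libraries were made. Mice of both sexes were used, 6 to 8 weeks old when experiments began.

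No label names an animal, so each plate counts as 1 sample of its treatment and no test between treatments was possible. Treatment cannot be told apart from plate. Shares of cells are therefore given with exact (Clopper-Pearson) 95% intervals, which cover counting error over cells only, and the fact that a gene moved the same way on both pairs of plates is given as a count. Both pairs may hold cells of the same tumors.

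Values of each cell were scaled to a sum of 100000, here called TP100K. In the CD31-positive sort these are transcripts per 100000, corrected for transcript length. In the CD45-negative sort they are expected counts per 100000, with no correction for length, so levels are not compared between the sorts, and levels of different genes are compared only in the CD31-positive sort. The median number of genes detected was 7181 in losartan+anti-PD1 cells and 7008 in losartan cells of the CD31-positive sort, and 7129 in losartan+anti-PD1 cells and 7099 in losartan cells of the CD45-negative sort. Median totals in the CD45-negative sort were 428351 expected counts in losartan+anti-PD1 cells and 421671 in losartan cells. The TPM values carry no depth, so that of the CD31-positive plates is unknown.

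The label was checked against marker genes. All 11 listed markers of the glioma cells, among them Olig1, Olig2, Sox2, Nes, Vim and Dbi, were above 0 in cells of all 4 plates. Of 14 macrophage and microglia markers, 10 in losartan+anti-PD1 cells and 11 in losartan cells of the CD31-positive sort were at 0 in every cell, as were 7 in losartan+anti-PD1 cells and 2 in losartan cells of the CD45-negative sort. Their summed level per cell ran from 0 up to 168.5 TP100K in losartan+anti-PD1 cells and 66.01 TP100K in losartan cells of the CD31-positive sort, and up to 98.5 TP100K in losartan+anti-PD1 cells and 268.2 TP100K in losartan cells of the CD45-negative sort. Among them, the mean of Tmem119 was 24.2 TP100K in losartan+anti-PD1 cells and 5.85 TP100K in losartan cells of the CD31-positive sort, and it went the opposite way in the CD45-negative sort, with 9.23 TP100K in losartan+anti-PD1 cells and 34.7 TP100K in losartan cells. Although the first plates were sorted on CD31, its gene Pecam1 was above 0 in only 3 of 51 losartan+anti-PD1 cells and 1 of 25 losartan cells there. A losartan cell of the CD31-positive sort had a summed endothelial marker level of 1684 TP100K, within the range of the cells labelled endothelial in that sort (lowest 435 TP100K, median 2911 TP100K). One losartan cell of the CD45-negative sort had 1656 TP100K over the pericyte markers. For some genes, values without the highest cell of each group are given as well. Markers of oligodendrocytes were more widespread. At least 2 of the 9 were at 10 TP100K or more in 16 of 51 losartan+anti-PD1 cells and 8 of 25 losartan cells of the CD31-positive sort, and in 16 of 44 losartan+anti-PD1 cells and 23 of 47 losartan cells of the CD45-negative sort. Their summed level reached at most 393.9 TP100K in the CD31-positive sort and 761.7 TP100K in the CD45-negative sort, both in losartan cells, below the lowest cell labelled oligodendrocyte in the same sort (4825 and 2053 TP100K).

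As background, cells show protein fragments to T cells on MHC molecules. MHC class I is carried by nearly all cells and shows fragments to CD8+ T cells, whereas MHC class II is made mainly by professional antigen-presenting cells and is recognised by CD4+ T cells. Many other cells, glioma cells among them, can make class II when they sense interferon-gamma, which raises the class II transactivator Ciita. Interferon-gamma also induces the guanylate-binding proteins (Gbp genes), a family of large GTPases of cell-autonomous defence, and Cd274, which codes for PD-L1, the ligand of PD1.

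For each gene a log2 ratio was formed from the mean TP100K + 1 of losartan+anti-PD1 cells over that of losartan cells, among genes detected in 25% or more of the cells with one or the other treatment. A gene is called higher or lower when this ratio passed 2-fold. Of 9889 genes in the CD31-positive sort, 1.36% were at least 2-fold higher with losartan+anti-PD1 and 1.02% at least 2-fold lower. Of 9900 genes in the CD45-negative sort, 1.11% were higher and 2.33% lower. Of the 9374 genes that passed the filter in both sorts, 37 (0.395%) were higher in both and 9 (0.096%) lower in both. The 37 shared higher genes were 29.8% of those higher in the CD31-positive sort and 33.9% of those higher in the CD45-negative sort. By contrast, the 9 shared lower genes were 10.5% of those lower in the CD31-positive sort and 4.07% of those lower in the CD45-negative sort, so the sorts had much less in common among genes that were lower. There were 5 genes that were higher in the CD31-positive sort and lower in the CD45-negative sort, and 3 went the other way. Over all 9374 genes the log2 ratios of the sorts were only weakly related (Pearson r = 0.18, Spearman rho = 0.14, across genes, which are not independent). The median log2 ratio of all genes was 0.03 in the CD31-positive sort and -0.13 in the CD45-negative sort. When the highest cell of each group was left out gene by gene, 27 of the 37 higher and 4 of the 9 lower genes were still past 2-fold in both sorts. Leaving out the cells with at least 2 markers of endothelial, macrophage and microglia, T and NK or B cells at 10 TP100K or more (1 losartan cell in each sort) kept 34 of the 37 higher and 8 of the 9 lower genes. When cells with at least 2 oligodendrocyte markers at that level were left out as well, 25 of the 37 and 4 of the 9 were kept. With the mean of log2 values over cells, 17 of the 37 and 1 of the 9 were kept. Adding 10 TP100K in place of 1 kept 6 of the 37 and 0 of the 9.

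**Figure D1:**
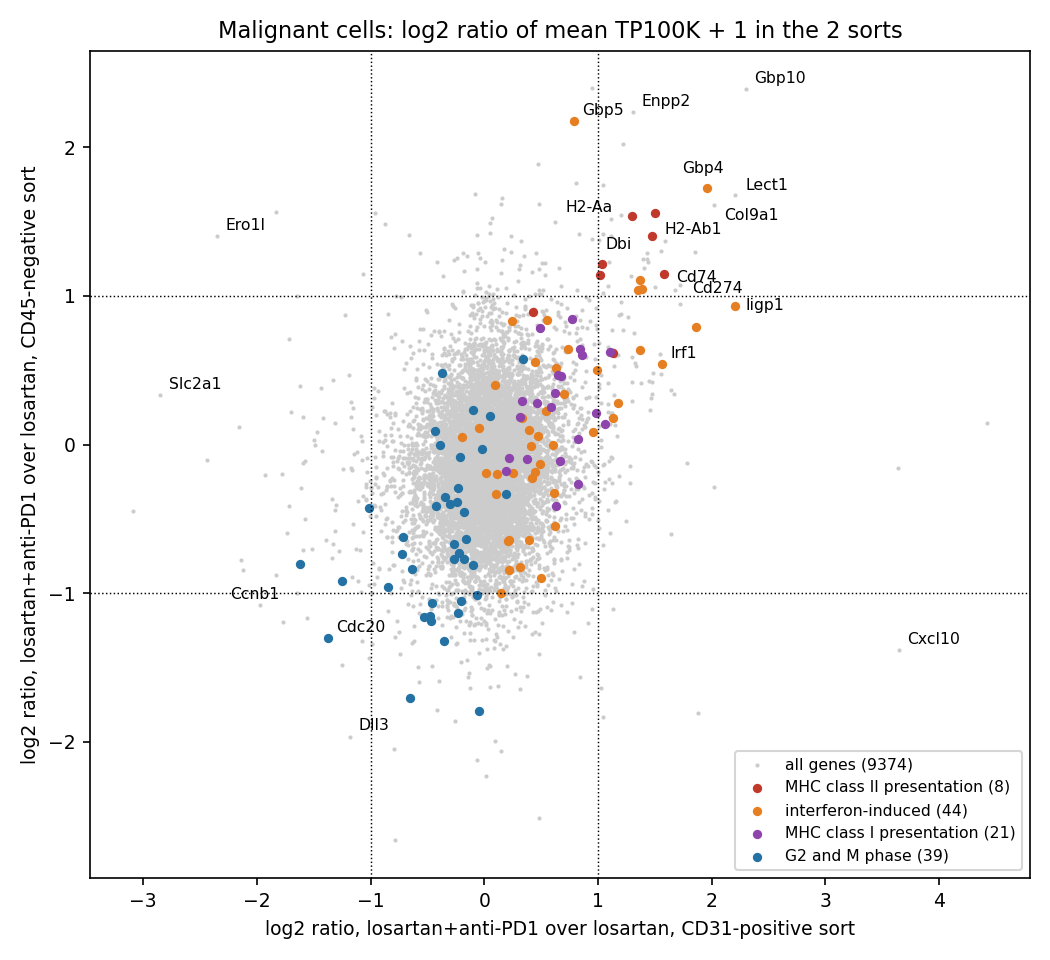
Each point is a gene, with its log2 ratio of losartan+anti-PD1 over losartan malignant cells in the CD31-positive sort on the x axis and in the CD45-negative sort on the y axis. In the upper right corner lie 6 class II genes and 5 of the 11 guanylate-binding protein genes, where in all 37 genes were at least 2-fold higher in both sorts, while 9 genes were at least 2-fold lower in both.

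The most uniform change was in MHC class II. Of 10 listed genes of class II presentation, 8 passed the filter. Of these, 7 were at least 2-fold higher with losartan+anti-PD1 in the CD31-positive sort and 6 in the CD45-negative sort, and the same 6 in both: H2-Aa, H2-Ab1, H2-Eb1, Cd74, H2-DMa and H2-DMb1. Of all genes, 1.36% were higher in the CD31-positive sort, 1.11% in the CD45-negative sort and 0.395% in both. The median log2 ratio of the class II list was 1.22 in the CD31-positive sort and 1.18 in the CD45-negative sort, beside 0.03 and -0.13 over all genes in the same order of sorts. All but Cd74 lie close together in the MHC region of chromosome 17, H2-Aa at chr17:34282744-34287823 and H2-Ab1 at chr17:34263227-34269418 (GRCm38). The promoters of 4 of the 6 class II genes are shown because the genes moved together. The sequences are the 250 bases before the start site in RefSeq, build GRCm38.p6, read 5′ to 3′ on the gene's strand. H2-Aa is at chr17:34287824-34288073 on the minus strand, H2-Eb1 at chr17:34305617-34305866 on the plus strand and H2-DMb1 at chr17:34152941-34153190 on the plus strand. H2-DMa has 2 start sites in the table, with windows at chr17:34122582-34122831 and chr17:34125268-34125517 on the plus strand. Capitals mark the motif CCAAT on either strand (ATTGG when read on the other strand), known in class II promoters as the Y box.
H2-Aa: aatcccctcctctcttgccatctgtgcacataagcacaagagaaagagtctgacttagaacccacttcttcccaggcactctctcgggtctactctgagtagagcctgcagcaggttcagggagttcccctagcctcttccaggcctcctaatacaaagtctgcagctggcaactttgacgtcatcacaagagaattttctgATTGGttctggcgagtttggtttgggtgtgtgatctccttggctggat
H2-Eb1: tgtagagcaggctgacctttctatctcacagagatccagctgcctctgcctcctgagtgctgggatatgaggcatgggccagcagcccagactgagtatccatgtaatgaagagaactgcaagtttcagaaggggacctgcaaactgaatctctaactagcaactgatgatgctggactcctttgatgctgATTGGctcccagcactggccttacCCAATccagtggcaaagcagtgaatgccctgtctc
H2-DMb1: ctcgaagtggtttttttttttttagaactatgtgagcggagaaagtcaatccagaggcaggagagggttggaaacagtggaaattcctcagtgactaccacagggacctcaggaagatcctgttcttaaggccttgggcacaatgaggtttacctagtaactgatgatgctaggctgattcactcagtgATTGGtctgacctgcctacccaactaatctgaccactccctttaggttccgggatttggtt
H2-DMa, first start: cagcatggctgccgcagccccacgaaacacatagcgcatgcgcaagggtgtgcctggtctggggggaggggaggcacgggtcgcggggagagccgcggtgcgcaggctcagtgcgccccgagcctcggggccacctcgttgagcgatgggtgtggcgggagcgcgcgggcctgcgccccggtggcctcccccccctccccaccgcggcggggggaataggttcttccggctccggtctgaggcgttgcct
H2-DMa, second start: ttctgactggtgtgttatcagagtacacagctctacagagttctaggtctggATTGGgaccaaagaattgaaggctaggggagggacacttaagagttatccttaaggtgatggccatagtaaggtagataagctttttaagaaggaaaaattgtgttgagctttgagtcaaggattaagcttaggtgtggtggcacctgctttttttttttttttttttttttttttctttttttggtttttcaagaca
The motif begins 48 bases before the start of H2-Aa, 61 before that of H2-DMb1, and 59 and 35 before that of H2-Eb1. H2-DMa differed, with no match before its first start and a single one in the far part of the window of its second. CCAAT was found in 33.8% of 32851 RefSeq promoters of this length, so a match is a description of the letters only. Of the 37 shared higher genes 23 matched the promoter table, and 11 of these held CCAAT. A gene counts here when any of its start sites had a match. The 33.8% is a share of promoters instead, so it is no direct measure for the genes. Promoters of H2-Ab1, Gbp4, Gbp10 and Ciita were not matched.

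H2-Aa and H2-Ab1 code for the alpha and beta chains of the I-A class II molecule. In the CD31-positive sort H2-Aa had a lowest, median and highest value of 0, 74.6 and 552 TP100K in losartan+anti-PD1 cells, against 0, 19.1 and 313 TP100K in losartan cells. The CD45-negative values were 0, 57.8 and 274.6 TP100K in losartan+anti-PD1 cells and 0, 1.58 and 239.4 TP100K in losartan cells. The ranges overlapped in both sorts, and the highest losartan cells lay above the upper quartile of losartan+anti-PD1 cells, which was 138.4 TP100K in the CD31-positive sort and 89.3 TP100K in the CD45-negative sort. The log2 ratio of H2-Aa was 1.30 in the CD31-positive sort and 1.54 in the CD45-negative sort. In the CD31-positive sort nearly every cell of both groups had H2-Aa, 49 of 51 losartan+anti-PD1 cells (96.1%, interval 86.5 to 99.5%) and 24 of 25 losartan cells (96%, interval 79.6 to 99.9%). In the CD45-negative sort the share of cells itself differed, at 42 of 44 losartan+anti-PD1 cells (95.5%, interval 84.5 to 99.4%) and 26 of 47 losartan cells (55.3%, interval 40.1 to 69.8%).

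The median of H2-Ab1 was 97.9 TP100K in losartan+anti-PD1 cells and 26.4 TP100K in losartan cells of the CD31-positive sort, with highest cells at 565.5 and 256.2 TP100K in the same order and a lowest cell at 0 in each group. The median of the CD45-negative sort was 40.5 TP100K in losartan+anti-PD1 cells and 9.57 TP100K in losartan cells, with highest cells at 236.6 and 183.4 TP100K. The log2 ratios were 1.47 in the CD31-positive sort and 1.40 in the CD45-negative sort. H2-Ab1 had the highest mean of the class II genes in losartan+anti-PD1 cells of the CD31-positive sort, at 121.7 TP100K.

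H2-Eb1, the beta chain of the I-E molecule, had a median of 59.5 TP100K in losartan+anti-PD1 cells and 15.1 TP100K in losartan cells of the CD31-positive sort (log2 ratio 1.498). The medians of the CD45-negative sort were 60.5 TP100K in losartan+anti-PD1 cells and 8.86 TP100K in losartan cells (log2 ratio 1.56). It was 1 of 4 genes, with Dbi, Gbp4 and Gbp10, that stayed past 2-fold in both sorts under each of the 13 alternative settings tried.

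Cd74, the invariant chain that escorts class II molecules through the cell, was above 0 in almost all cells of every group. Its lowest, median and highest values in the CD31-positive sort were 0, 76.9 and 188.2 TP100K in losartan+anti-PD1 cells, against 1.72, 22.2 and 92.5 TP100K in losartan cells. The corresponding values of the CD45-negative sort were 2.30, 91.1 and 296 TP100K in losartan+anti-PD1 cells and 0, 18.1 and 206.9 TP100K in losartan cells. The log2 ratio was 1.58 in the CD31-positive sort and 1.15 in the CD45-negative sort. Every losartan cell of the CD31-positive sort was below the upper quartile of losartan+anti-PD1 cells, whereas losartan cells of the CD45-negative sort reached well above it (128.3 TP100K).

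H2-DMa and H2-DMb1 form H2-DM, which loads peptide onto class II. H2-DMa had a median of 23.8 TP100K in losartan+anti-PD1 cells and 5.67 TP100K in losartan cells of the CD31-positive sort, and of 20.2 TP100K in losartan+anti-PD1 cells and 8.03 TP100K in losartan cells of the CD45-negative sort. H2-DMa had log2 ratios of 1.03 and 1.21, CD31-positive sort first. H2-DMb1 was above 0 in 51 of 51 losartan+anti-PD1 cells of the CD31-positive sort, with a median of 34.1 TP100K, and in 23 of 25 losartan cells, with a median of 18.4 TP100K. The median of the CD45-negative sort was 20.2 TP100K in losartan+anti-PD1 cells and 9.25 TP100K in losartan cells. The log2 ratios of H2-DMb1 were 1.02 and 1.14. Its transcript is up to 95.7% identical to that of H2-DMb2, with matches over 76.9% of its length, so reads may be split between them. The sum of both genes gave log2 ratios of 1.07 and 1.16 and H2-DMb2 alone 1.14 and 0.61, each time CD31-positive sort first.

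Ciita, which switches class II genes on, was higher without reaching 2-fold. It was above 0 in 32 of 51 losartan+anti-PD1 cells (62.7%, interval 48.1 to 75.9%) and 10 of 25 losartan cells (40%, interval 21.1 to 61.3%) of the CD31-positive sort. In the CD45-negative sort 18 of 44 losartan+anti-PD1 cells (40.9%, interval 26.3 to 56.8%) and 11 of 47 losartan cells (23.4%, interval 12.3 to 38%) had it. Its log2 ratio was 0.43 in the CD31-positive sort and 0.89 in the CD45-negative sort. Ctss, a protease that trims the invariant chain and is a gene of macrophages, was in only 5 of 51 and 3 of 44 losartan+anti-PD1 cells and in 3 of 25 and 3 of 47 losartan cells, CD31-positive sort first. Of the 14 listed markers of macrophages and microglia, which carry class II in brain tumors, Ptprc, Tyrobp, Csf1r and C1qa were at 0 in every cell of the CD31-positive sort. In the CD45-negative sort they were at 0 in all but 1 or 2 cells a group. The highest was 1 losartan+anti-PD1 cell with 90.6 TP100K of C1qa. Of all 14 markers, 4 were above 0 in some losartan+anti-PD1 cell and 3 in some losartan cell of the CD31-positive sort. In the CD45-negative sort 7 were above 0 in some losartan+anti-PD1 cell and 12 in some losartan cell. Tmem119, another of the 14, was higher with losartan+anti-PD1 in the CD31-positive sort, as class II was. Its means there were 24.2 TP100K in losartan+anti-PD1 cells and 5.85 TP100K in losartan cells. It went the opposite way in the CD45-negative sort, with 9.23 TP100K in losartan+anti-PD1 cells and 34.7 TP100K in losartan cells. In only the cells with every one of the 14 macrophage and microglia markers at 0 (19 losartan+anti-PD1 and 13 losartan cells of the CD31-positive sort, 21 losartan+anti-PD1 and 17 losartan cells of the CD45-negative sort), a setting chosen after seeing the data, the class II median was 0.93 and 1.74, CD31-positive sort first. The CD31-positive median was then below 2-fold.

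Each cell was also given a level for the class II list, the mean of ln(TP100K + 1) over its 8 genes. The median cell was at 3.09 in losartan+anti-PD1 and 2.09 in losartan in the CD31-positive sort, and at 2.86 in losartan+anti-PD1 and 1.53 in losartan in the CD45-negative sort. Of the losartan+anti-PD1 cells, 45 of 51 (88.2%) in the CD31-positive sort and 38 of 44 (86.4%) in the CD45-negative sort were above the losartan median. Above every losartan cell were 13 losartan+anti-PD1 cells of the CD31-positive sort, whereas 0 of the CD45-negative sort were. The difference was thus one of most cells and not of a small subset, with overlap of the groups in both sorts. Within losartan+anti-PD1 cells the class II level was not related to the number of genes detected (r = -0.03 over 51 cells and 0.08 over 44 cells, given as a description of cells from single plates).

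**Figure D2:**
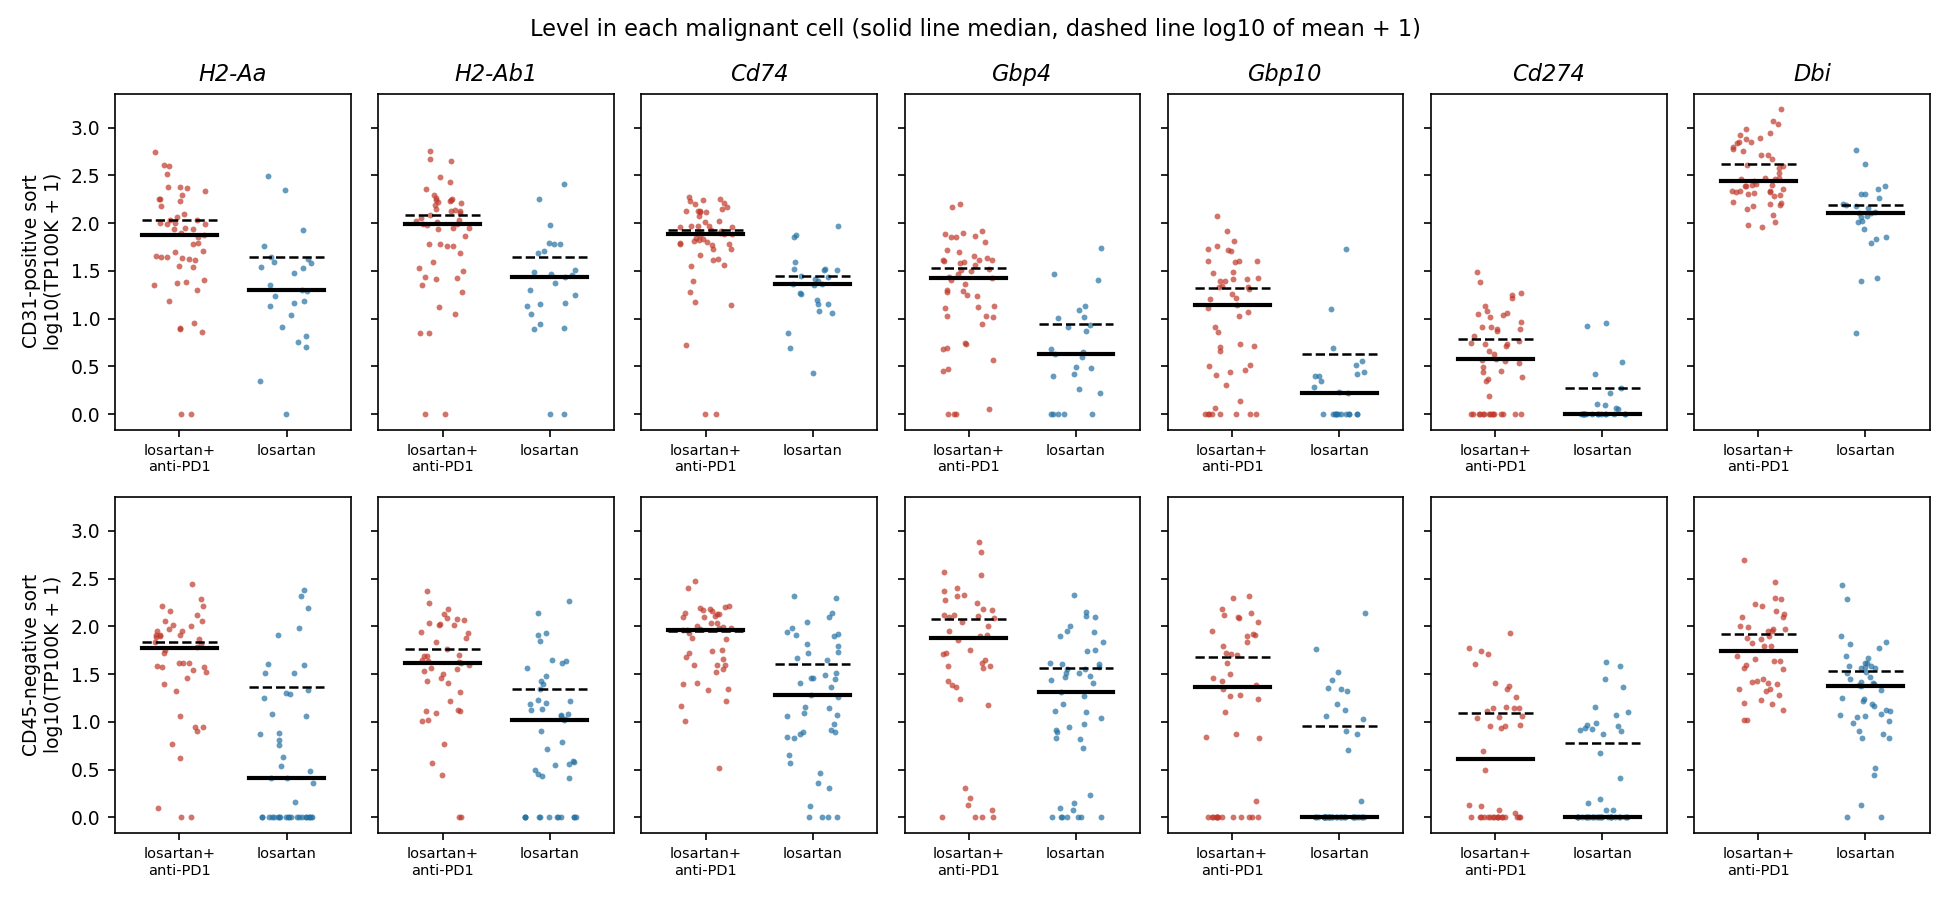
Each point is a malignant cell, losartan+anti-PD1 left and losartan right, with the CD31-positive sort above and the CD45-negative sort below. The y axis is log10(TP100K + 1), the solid line is the median and the dashed line the log10 of the mean + 1. The median of H2-Aa was 57.8 TP100K in losartan+anti-PD1 cells and 1.58 TP100K in losartan cells of the CD45-negative sort, and the groups overlap in every panel.

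The guanylate-binding proteins held the largest ratios shared by both sorts. All 11 Gbp genes passed the filter, and 5 were at least 2-fold higher in both sorts: Gbp10, Gbp4, Gbp1, Gbp11 and Gbp8. Of all genes 0.395% were. Gbp10, at chr5:105215699-105239533 (GRCm38), led the shared list. Its lowest, median and highest values in the CD31-positive sort were 0, 13.05 and 118.2 TP100K in losartan+anti-PD1 cells, against 0, 0.686 and 52.2 TP100K in losartan cells. The corresponding values of the CD45-negative sort were 0, 22.4 and 205.3 TP100K in losartan+anti-PD1 cells and 0, 0 and 136.4 TP100K in losartan cells. It was above 0 in 43 of 51 losartan+anti-PD1 cells (84.3%, interval 71.4 to 93%) and 13 of 25 losartan cells (52%, interval 31.3 to 72.2%) of the CD31-positive sort. The shares in the CD45-negative sort were 31 of 44 losartan+anti-PD1 cells (70.5%, interval 54.8 to 83.2%) and 15 of 47 losartan cells (31.9%, interval 19.1 to 47.1%). The log2 ratio of Gbp10 was 2.30 in the CD31-positive sort and 2.39 in the CD45-negative sort, and 3.08 and 2.80 without the highest cell of each group. Its transcript is up to 99.2% identical to that of Gbp6, with matches over 94.2% of its length. How reads were divided between them is therefore uncertain. Gbp6 and Gbp10 together had a mean of 51.01 TP100K in losartan+anti-PD1 cells and 18.7 TP100K in losartan cells of the CD31-positive sort (log2 ratio 1.40). Their sum in the CD45-negative sort was 146.8 TP100K in losartan+anti-PD1 cells and 102.5 TP100K in losartan cells (log2 ratio 0.51), which is below 2-fold.

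Gbp4, which has no such partner among the transcripts searched, had a median of 25.4 TP100K in losartan+anti-PD1 cells and 3.29 TP100K in losartan cells of the CD31-positive sort, with highest cells at 159.3 and 53.9 TP100K in the same order. The median of the CD45-negative sort was 74.9 TP100K in losartan+anti-PD1 cells and 19.8 TP100K in losartan cells, with highest cells at 771 and 213.04 TP100K. At least 80% of the cells in every group had it, so its log2 ratios of 1.96 and 1.73, CD31-positive sort first, came from level rather than from the share of cells. Gbp1, called Gbp2b in RefSeq, was above 0 in few losartan cells. It passed the 25% filter in both sorts only through losartan+anti-PD1 cells. The difference in its shares is thus in part a product of how the genes were chosen. It was above 0 in 21 of 51 losartan+anti-PD1 cells (41.2%, interval 27.6 to 55.8%) against 2 of 25 losartan cells (8%, interval 0.984 to 26%) of the CD31-positive sort, and in 20 of 44 losartan+anti-PD1 cells (45.5%, interval 30.4 to 61.2%) against 9 of 47 losartan cells (19.1%, interval 9.15 to 33.3%) of the CD45-negative sort. Its log2 ratios were 1.22 and 2.02 in the same order of sorts.

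Gbp8 and Gbp11 lie in the Gbp cluster of chromosome 5 (chr5:105012513-105346476) with Gbp4 and Gbp10. Their log2 ratios were 1.37 and 1.11 for Gbp8 and 1.41 and 1.19 for Gbp11, CD31-positive sort first. These transcripts are alike too (Gbp11 is up to 96.1% identical to Gbp8, with matches over 81.4% of its length). Summed, Gbp6, Gbp8, Gbp10 and Gbp11 gave 1.48 in the CD31-positive sort and 0.58 in the CD45-negative sort. The neighbor Gbp9 had 0.47 and 0.06. Of the family on chromosome 3, Gbp2 was 1.87 in the CD31-positive sort and 0.79 in the CD45-negative sort, Gbp5 0.79 and 2.18, Gbp3 0.61 and -0.01, and Gbp7 -0.04 and 0.11. The family thus did not move as a block.

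The list of interferon-induced genes also holds some of the Gbp genes. Of its 48 genes 44 passed the filter. Among these, 10 were at least 2-fold higher in the CD31-positive sort and 5 in the CD45-negative sort, 0 were 2-fold lower in either, and 4 were higher in both, among them Gbp4, Gbp8 and Ifi47. The median log2 ratio of the list was 0.49 in the CD31-positive sort and 0.11 in the CD45-negative sort, and 42 of the 44 genes were above 0 in the CD31-positive sort against 26 in the CD45-negative sort. Over all genes the medians were 0.03 and -0.13. Of all genes, 1.36% were higher in the CD31-positive sort, 1.11% in the CD45-negative sort and 0.395% in both. The share of all genes above 0 is not given here, so the counts above 0 are a description only.

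Ifi47, an interferon-induced GTPase, had a median of 69.99 TP100K in losartan+anti-PD1 cells and 20.7 TP100K in losartan cells of the CD31-positive sort, and 71.9 TP100K in losartan+anti-PD1 cells and 27.4 TP100K in losartan cells of the CD45-negative sort. The groups overlapped in both sorts, with highest cells at 299.8 TP100K in losartan+anti-PD1 and 104.7 TP100K in losartan in the CD31-positive sort, and at 300.6 TP100K in losartan+anti-PD1 and 146.3 TP100K in losartan in the CD45-negative sort. Ifi47 had log2 ratios of 1.35 and 1.04.

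Iigp1, a GTPase of the same defence system, and Irf1, a transcription factor induced by interferon-gamma, were past 2-fold only in the CD31-positive sort. The log2 ratio of Iigp1 was 2.21 in the CD31-positive sort and 0.93 in the CD45-negative sort, and that of Irf1 1.56 and 0.54. Isg15, Ifit2 and Rsad2, known mainly from the type I interferon response and picked after their values were seen, did not pass 2-fold in either sort. Isg15 had a log2 ratio of 0.15 in the CD31-positive sort and -0.997 in the CD45-negative sort, the lowest of the list there. Ifit2 had 0.50 and -0.89, and Rsad2 0.22 and -0.84. Genes picked in this way do not stand for the type I genes of the list as a set. Ifng itself was at 0 in every cell of all 4 plates, as 0 of 51 and 0 of 44 losartan+anti-PD1 cells (which, with 3 cells taken as the limit of a count of 0, allow shares of up to 5.88% and 6.82%) and 0 of 25 and 0 of 47 losartan cells (up to 12% and 6.38%). The 11 genes of interferon receptors and their signalling had a median log2 ratio of 0.03 in the CD31-positive sort and -0.13 in the CD45-negative sort, equal to those of all genes to this precision, and none passed 2-fold.

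MHC class I genes, which show fragments to CD8+ T cells, were mostly higher by less than 2-fold. Of 22 listed genes 21 passed the filter, and all 21 had a log2 ratio above 0 in the CD31-positive sort against 15 in the CD45-negative sort. The medians were 0.65 and 0.25, beside 0.03 and -0.13 over all genes, CD31-positive sort first. Only Tap2, a subunit of the peptide transporter, and Psmb9, a subunit of the immunoproteasome, passed 2-fold in the CD31-positive sort, with log2 ratios of 1.06 and 1.11. In the CD45-negative sort 0 genes of the list did, and Tap2 had 0.14 and Psmb9 0.62. Over all genes, 1.36% were at least 2-fold higher in the CD31-positive sort and 1.11% in the CD45-negative sort. B2m, the common light chain, had a median of 773 TP100K in losartan+anti-PD1 cells and 591 TP100K in losartan cells of the CD31-positive sort (log2 ratio 0.47), and of 295 TP100K in losartan+anti-PD1 cells and 236.6 TP100K in losartan cells of the CD45-negative sort (log2 ratio 0.28). The heavy chain H2-K1 had log2 ratios of 0.65 and 0.47. Tap1, Tap2, Psmb8 and Psmb9 lie among the class II genes at chr17:34119693-34316674. The 5 genes of that stretch that were not shared had a median log2 ratio of 1.06 in the CD31-positive sort and 0.61 in the CD45-negative sort.

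**Figure D3:**
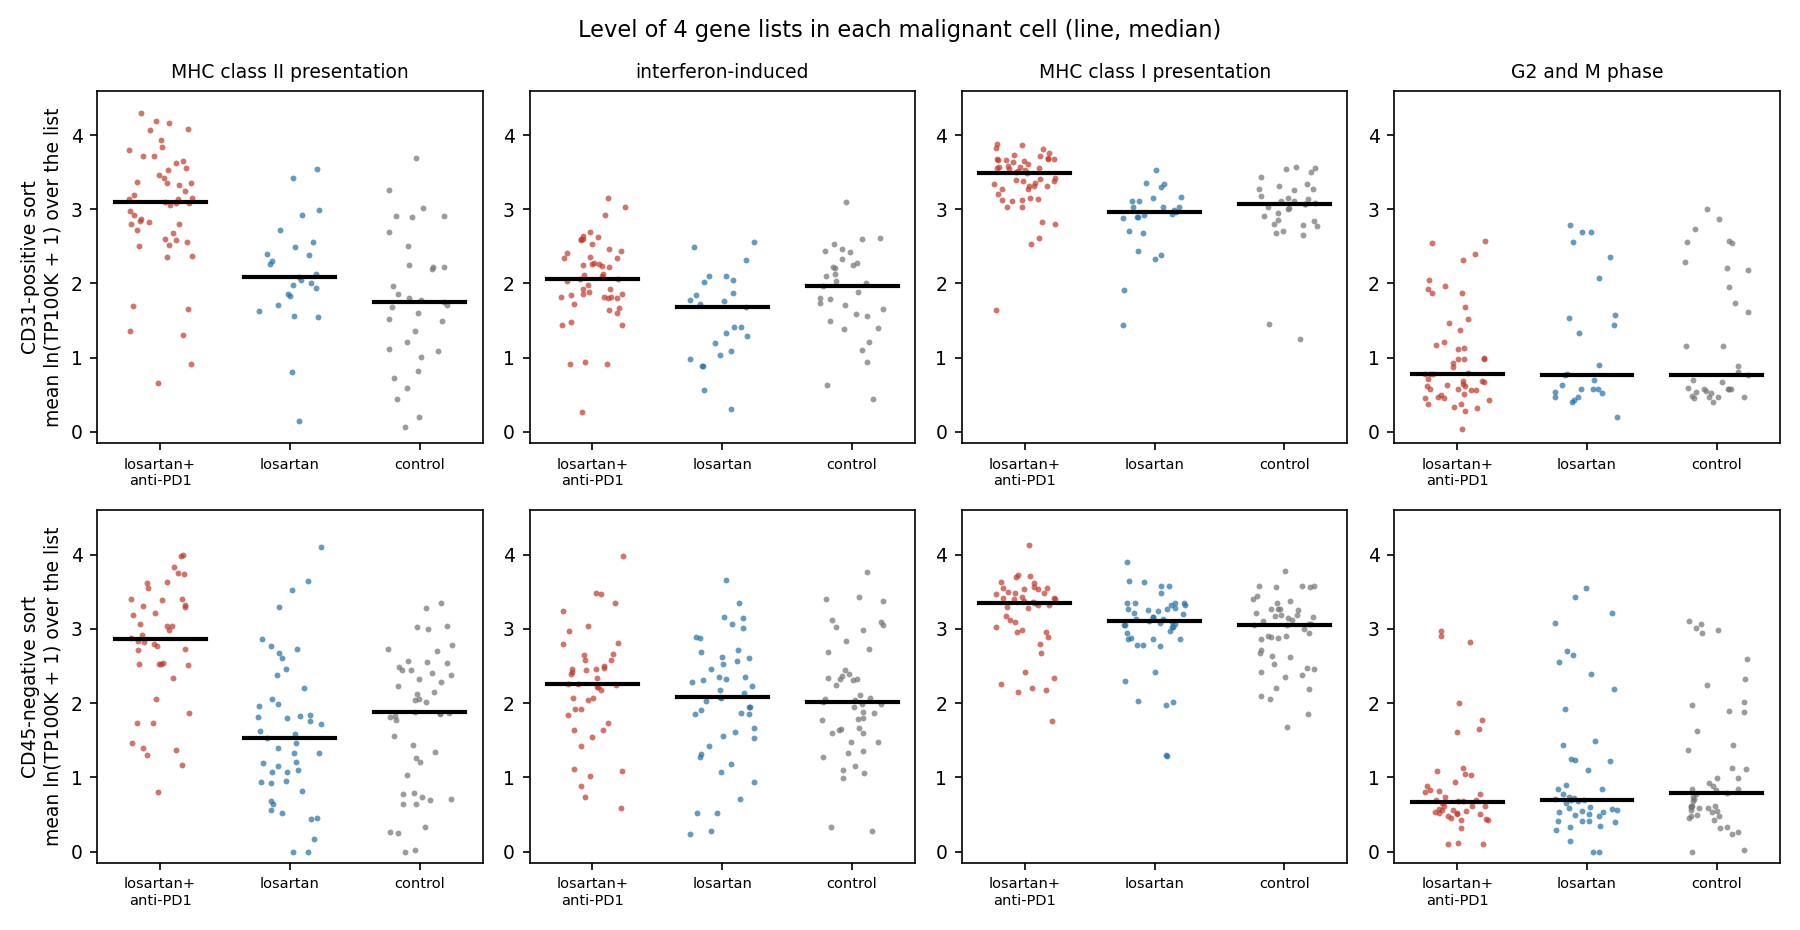
Each point is a malignant cell and its height the mean ln(TP100K + 1) over a gene list, for losartan+anti-PD1, losartan and control cells, with the CD31-positive sort above and the CD45-negative sort below. The line is the median. The class II median was 3.09 in losartan+anti-PD1 cells and 2.09 in losartan cells of the CD31-positive sort, whereas the G2 and M phase medians were 0.781 in losartan+anti-PD1 cells and 0.773 in losartan cells.

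Of all genes 0.395% were at least 2-fold higher in both sorts. Cd274 (chr19:29362107-29388095), which codes for PD-L1, was the only one of the 7 checkpoint ligands that passed the filter to be so. Within the CD31-positive sort it was above 0 in 36 of 51 losartan+anti-PD1 cells (70.6%, interval 56.2 to 82.5%) and 10 of 25 losartan cells (40%, interval 21.1 to 61.3%), with medians of 2.75 and 0 TP100K in the same order. Cells with Cd274 in the CD45-negative sort were 27 of 44 losartan+anti-PD1 cells (61.4%, interval 45.5 to 75.6%) and 21 of 47 losartan cells (44.7%, interval 30.2 to 59.9%), with medians of 3.07 and 0 TP100K. The intervals overlapped in both sorts. The highest cell was at 30.1 TP100K in losartan+anti-PD1 and 8.04 TP100K in losartan in the CD31-positive sort, and at 85.3 TP100K in losartan+anti-PD1 and 41.9 TP100K in losartan in the CD45-negative sort. Its log2 ratios were 1.72 and 1.07, CD31-positive sort first. Cd47, which signals macrophages not to engulf a cell, had 0.44 and 0.91. Lgals3, a galectin that binds sugars on T cells, had -0.96 in the CD31-positive sort and 1.56 in the CD45-negative sort. Pdcd1lg2, the other ligand of PD1, and Cd80, a ligand of CD28 and CTLA4, were at 0 in every cell of all 4 plates.

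**Figure D4:**
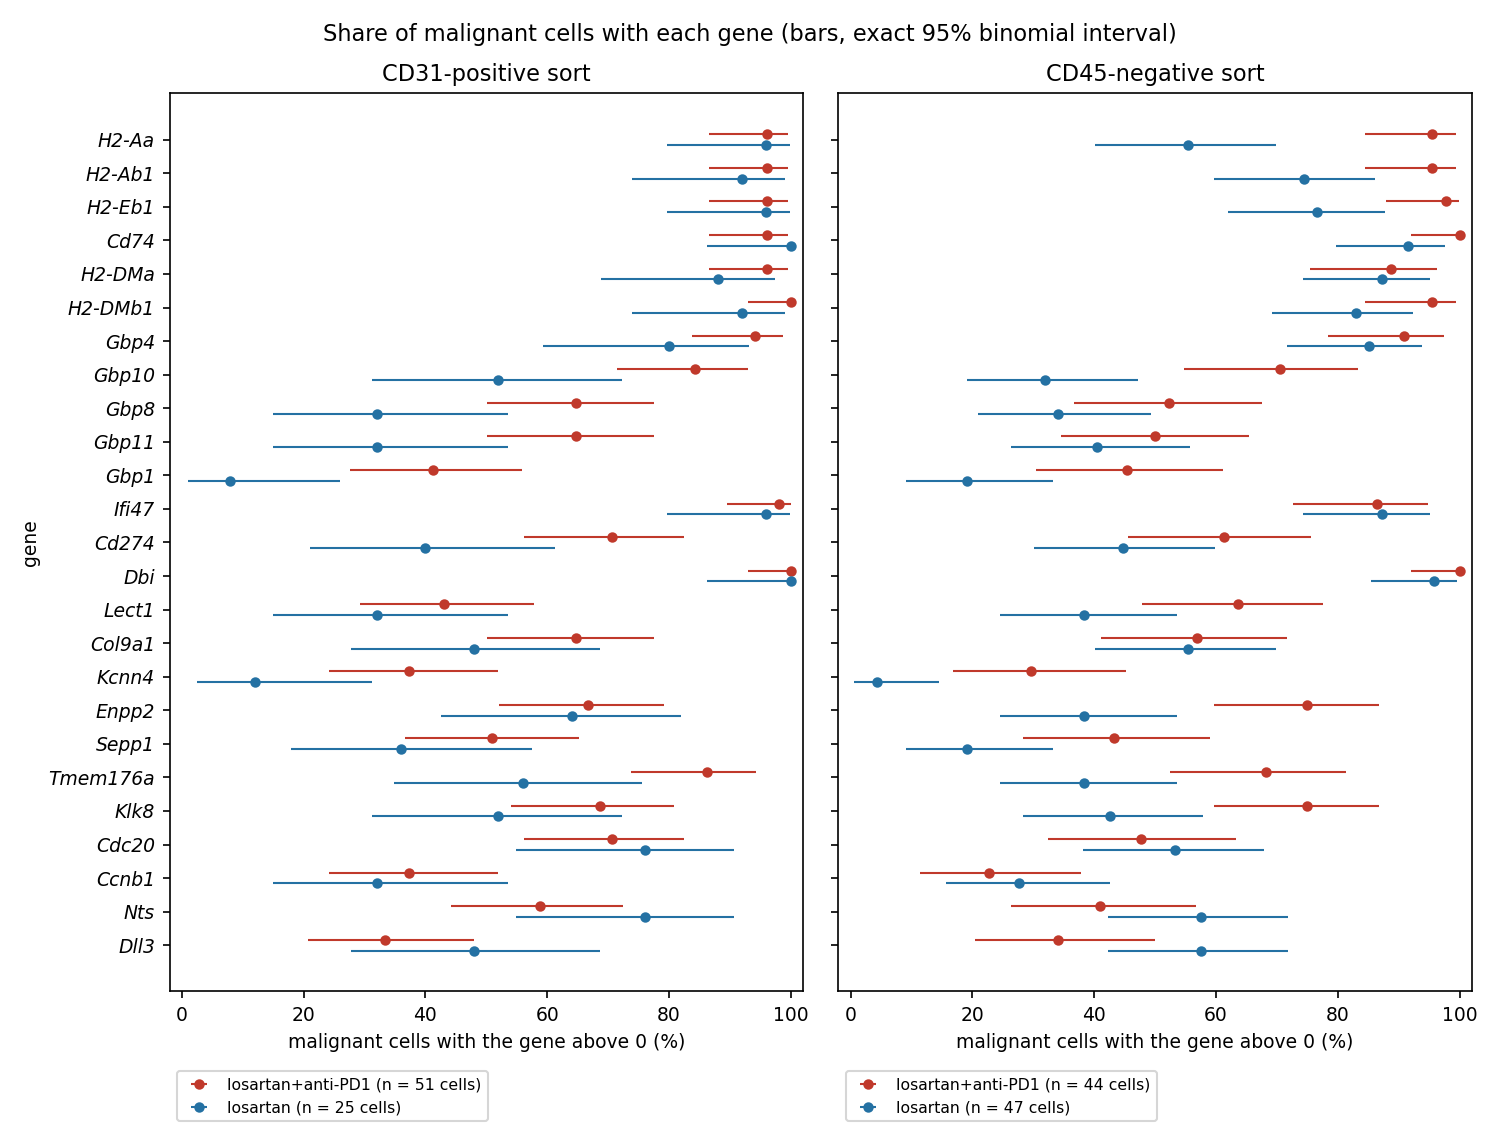
For 25 named genes, points give the percent of malignant cells with the gene above 0, losartan+anti-PD1 above losartan in each row, and bars the exact 95% binomial interval. In the CD45-negative sort, for example, Gbp10 was above 0 in 70.5% of losartan+anti-PD1 cells and 31.9% of losartan cells. The intervals cover counting error over the cells of single plates only, so whether they overlap is no test between treatments.

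The remaining shared higher genes were of mixed function. Only 13 of the 37 shared higher genes belong to any of the 33 lists. Dbi, the acyl-CoA-binding protein and diazepam-binding inhibitor, had the highest mean of all 37 in losartan+anti-PD1 cells of the CD31-positive sort, at 413 TP100K. In the CD31-positive sort its lowest, median and highest values were 91.1, 272.4 and 1575 TP100K in losartan+anti-PD1 cells, against 6.02, 127.1 and 577 TP100K in losartan cells. The corresponding values of the CD45-negative sort were 9.42, 54.4 and 499 TP100K in losartan+anti-PD1 cells and 0, 23.1 and 268.4 TP100K in losartan cells. Every losartan+anti-PD1 cell had it and the groups overlapped in both sorts. The log2 ratios of Dbi were 1.43 and 1.29, CD31-positive sort first.

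Lect1 (Cnmd in RefSeq), Col9a1 and Col2a1, known from cartilage, were all higher. Lect1 codes for chondromodulin and was above 0 in 22 of 51 losartan+anti-PD1 cells (43.1%, interval 29.3 to 57.8%) and 8 of 25 losartan cells (32%, interval 14.9 to 53.5%) of the CD31-positive sort. Cells with Lect1 in the CD45-negative sort were 28 of 44 losartan+anti-PD1 cells (63.6%, interval 47.8 to 77.6%) and 18 of 47 losartan cells (38.3%, interval 24.5 to 53.6%). Its highest cells were at 180.5 TP100K in losartan+anti-PD1 and 15.4 TP100K in losartan in the CD31-positive sort, and at 156.1 TP100K in losartan+anti-PD1 and 27.04 TP100K in losartan in the CD45-negative sort. The log2 ratios were 2.21 and 1.68. A minority of high cells thus carried much of the mean.

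Col9a1, a chain of collagen IX, had log2 ratios of 2.02 and 1.61, CD31-positive sort first. The share of cells with it differed little in the CD45-negative sort, at 25 of 44 losartan+anti-PD1 cells (56.8%) and 26 of 47 losartan cells (55.3%), and the median there was lower in losartan+anti-PD1, at 1.86 TP100K against 2.46 TP100K in losartan cells. The mean was set by the highest cells, up to 216.5 TP100K in losartan+anti-PD1 and 72.8 TP100K in losartan cells. Col2a1, the chain of collagen II, had 1.55 and 1.30, but 0.82 in the CD45-negative sort without the highest cell of each group. Of the 20 genes of the matrix and basement membrane list that passed the filter, Col9a1 was the only one higher in both sorts. Col2a1 and the matrix protein gene Matn2, also higher in both sorts, are not on that list. The medians of the list were 0.06 and -0.41, beside 0.03 and -0.13 over all genes, CD31-positive sort first. Of all genes 0.395% were higher in both sorts.

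Enpp2 codes for autotaxin, a secreted enzyme that makes lysophosphatidic acid. Its log2 ratio was 1.31 in the CD31-positive sort and 2.23 in the CD45-negative sort, where 1 cell at 2923 TP100K held 64.9% of the losartan+anti-PD1 signal. Without the highest cell of each group the ratios were 1.17 and 1.54. In the CD45-negative sort 33 of 44 losartan+anti-PD1 cells (75%, interval 59.7 to 86.8%) had it, against 18 of 47 losartan cells (38.3%, interval 24.5 to 53.6%). The shares in the CD31-positive sort were nearly equal, at 34 of 51 losartan+anti-PD1 cells (66.7%) and 16 of 25 losartan cells (64%).

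Kcnn4, a calcium-activated potassium channel, was above 0 in few losartan cells. It passed the 25% filter in both sorts only through losartan+anti-PD1 cells. The difference in its shares is thus in part a product of how the genes were chosen. Its losartan means, 0.29 TP100K in the CD31-positive sort and 0.08 TP100K in the CD45-negative sort, were below the pseudocount of 1 TP100K. Within the CD31-positive sort 19 of 51 losartan+anti-PD1 cells (37.3%, interval 24.1 to 51.9%) and 3 of 25 losartan cells (12%, interval 2.55 to 31.2%) had it, and in the CD45-negative sort 13 of 44 losartan+anti-PD1 cells (29.5%, interval 16.8 to 45.2%) and 2 of 47 losartan cells (4.26%, interval 0.52 to 14.5%). The log2 ratios of Kcnn4 were 1.59 and 1.37. Sepp1 (Selenop in RefSeq), a secreted selenium carrier, was above 0 in 26 of 51 losartan+anti-PD1 cells (50.98%) and 9 of 25 losartan cells (36%) of the CD31-positive sort, and in 19 of 44 losartan+anti-PD1 cells (43.2%) and 9 of 47 losartan cells (19.1%) of the CD45-negative sort. The log2 ratios of Sepp1 were 1.85 and 1.29. In the CD45-negative sort Sepp1 passed the 25% filter only through losartan+anti-PD1 cells. Serpinf1, a secreted antiangiogenic serpin, had log2 ratios of 1.44 and 1.25, and Tmem176a, a membrane protein of unsettled function, 1.44 and 1.23, all CD31-positive sort first.

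The other shared higher genes were closer to the threshold. Trf, the iron carrier transferrin, had a median of 29.6 TP100K in losartan+anti-PD1 cells and 10.2 TP100K in losartan cells of the CD31-positive sort, and of 34.8 TP100K in losartan+anti-PD1 cells and 16.7 TP100K in losartan cells of the CD45-negative sort. Its log2 ratios were 1.05 and 1.42, and it shares sequence with the gene model Gm20425. C2, a complement component next to the class II genes, had 1.09 and 1.07 and shares sequence with the readthrough model Gm20547. Lbp, which binds bacterial lipopolysaccharide, had 1.67 and 1.04, Matn2, a matrix protein, 1.51 and 1.06, Klk8, a secreted protease, 1.12 and 1.40, and Phyh, a peroxisomal hydroxylase, 1.12 and 1.51. Gpd1 had 1.05 and 1.74, Pla2g16 1.10 and 1.23, Ngfr 1.01 and 1.38, and L1cam 1.05 and 1.02. Raet1d, Mnda and A530032D15Rik are uncertain because near-identical genes could share their reads. Raet1d, a stress ligand of the killer-cell receptor NKG2D, had 1.34 and 1.05, but Raet1d and Raet1e summed had 0.08 and 0.22. Mnda (Ifi211 in RefSeq) had 1.39 and 1.25, but 0.51 and 0.71 when summed with Mndal, Ifi204 and Ifi205. A530032D15Rik, with 1.29 and 1.14, is up to 98.7% identical to Sp140. Zfp961 had 1.54 in the CD45-negative sort, but 0.18 there without the highest cell of each group. Without those cells Mnda (0.51), Raet1d (0.92), Lbp (0.91), Matn2 (0.93) and A530032D15Rik (0.95) were also below 2-fold in the CD45-negative sort. In the CD31-positive sort Ngfr (0.95), Gpd1 (0.995) and L1cam (0.9998) then were.

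Of the 9 genes that were lower in both sorts, Cdc20 had the largest ratio shared by both. Cdc20 activates the anaphase-promoting complex, and Ccnb1 codes for cyclin B1, the partner of Cdk1 at entry into mitosis. Their promoters are shown as the 250 bases before the start, with Cdc20 at chr4:118437344-118437593 and Ccnb1 at chr13:100786487-100786736, both on the minus strand of GRCm38.p6. Capitals mark CCAAT and the CHR letters TTTGAA, searched on both strands, which are known from promoters of G2 and M phase genes.
Cdc20: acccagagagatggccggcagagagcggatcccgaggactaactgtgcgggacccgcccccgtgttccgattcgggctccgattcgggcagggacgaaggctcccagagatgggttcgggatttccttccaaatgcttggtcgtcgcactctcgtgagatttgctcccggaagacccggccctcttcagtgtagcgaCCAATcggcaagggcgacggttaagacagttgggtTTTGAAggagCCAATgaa
Ccnb1: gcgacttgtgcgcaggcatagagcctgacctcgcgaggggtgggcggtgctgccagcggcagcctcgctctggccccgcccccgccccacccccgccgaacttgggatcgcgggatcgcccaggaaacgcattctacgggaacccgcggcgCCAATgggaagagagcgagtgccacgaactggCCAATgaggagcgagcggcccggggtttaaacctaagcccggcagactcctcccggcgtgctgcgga
TTTGAA begins 18 bases before the start of Cdc20 and was found in 15.99% of all promoters. CCAAT begins 53 and 8 bases before the start of Cdc20, and 99 and 67 bases before that of Ccnb1.

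Cdc20 had lowest, median and highest values of 0, 6.18 and 143.6 TP100K in losartan+anti-PD1 cells and 0, 7.95 and 300.4 TP100K in losartan cells of the CD31-positive sort. The corresponding values of the CD45-negative sort were 0, 0 and 229.5 TP100K in losartan+anti-PD1 cells and 0, 1.10 and 223.7 TP100K in losartan cells. The medians differed little, and the difference in the mean lay in the upper cells. The log2 ratio of Cdc20 was -1.38 in the CD31-positive sort and -1.30 in the CD45-negative sort, and -1.16 and -1.77 without the highest cell of each group. Ccnb1 was above 0 in 19 of 51 losartan+anti-PD1 cells (37.3%) and 8 of 25 losartan cells (32%) of the CD31-positive sort, so that more cells had it although the mean was lower, at 4.27 TP100K in losartan+anti-PD1 cells and 15.5 TP100K in losartan cells. The log2 ratios of Ccnb1 were -1.65 and -1.0 (CD45-negative sort, at the threshold itself). Reads may be shared with a pseudogene, Ccnb1-ps, that is up to 99.2% identical, with matches over 51.7% of the Ccnb1 transcript.

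Of 51 listed G2 and M phase genes 39 passed the filter. Of these, 4 were at least 2-fold lower in the CD31-positive sort and 11 in the CD45-negative sort, 0 were 2-fold higher in either, and Cdc20 alone was lower in both. The median log2 ratio of the list was -0.30 in the CD31-positive sort and -0.73 in the CD45-negative sort, beside 0.03 and -0.13 over all genes. Of all genes, 1.02% were at least 2-fold lower in the CD31-positive sort, 2.33% in the CD45-negative sort and 0.096% in both. Ube2c, which acts with the anaphase-promoting complex, had -1.62 and -0.80, Nek2, a centrosome kinase, -1.26 and -0.92, and Ect2, needed for cytokinesis, -0.05 and -1.80. Per cell, the level of the list hardly differed at the median, at 0.781 in losartan+anti-PD1 and 0.773 in losartan in the CD31-positive sort, and at 0.663 in losartan+anti-PD1 and 0.697 in losartan in the CD45-negative sort. The means over cells were 1.003 in losartan+anti-PD1 and 1.18 in losartan in the CD31-positive sort, and 0.882 in losartan+anti-PD1 and 1.10 in losartan in the CD45-negative sort. The means thus differed more than the medians, as the plot of list levels by cell shows. The 36 S phase genes had medians of 0.00 and -0.09 and none passed 2-fold in either sort.

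Other shared lower genes were of mixed function. Nts, the peptide neurotensin, had a median of 3.07 TP100K in losartan+anti-PD1 cells and 14.2 TP100K in losartan cells of the CD31-positive sort, with highest cells at 64.5 and 135.3 TP100K. The median of the CD45-negative sort was 0 TP100K in losartan+anti-PD1 cells and 1.35 TP100K in losartan cells. The log2 ratios of Nts were -1.56 and -1.17. A930024E05Rik, an unnamed transcript, differed in the share of cells. It was above 0 in 15 of 51 losartan+anti-PD1 cells (29.4%, interval 17.5 to 43.8%) against 19 of 25 losartan cells (76%, interval 54.9 to 90.6%) of the CD31-positive sort, and in 9 of 44 losartan+anti-PD1 cells (20.5%, interval 9.80 to 35.3%) against 27 of 47 losartan cells (57.4%, interval 42.2 to 71.7%) of the CD45-negative sort. Its log2 ratios were -1.08 and -1.32. In the CD45-negative sort it passed the 25% filter only through losartan cells.

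The other 5 lower genes were no longer past 2-fold in both sorts when the highest cell of each group was left out. Hmox1, heme oxygenase, had log2 ratios of -1.77 and -1.19, but a single losartan cell at 2132 TP100K held 94.4% of the losartan signal in the CD45-negative sort, and without the highest cell of each group the ratio there was 1.32. Dll3, a Notch ligand of glial progenitors, had -1.18 and -1.96, and -0.35 and -2.05 without those cells. Dpp7 had -1.97 and -1.08, and -0.73 and -1.02 without them. Serpinb8 had -1.25 and -1.48, and -1.08 and -0.87 without them, and Lhfp -1.02 and -1.44, and -0.88 and -1.22 without them, all CD31-positive sort first.

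Several other lists had medians away from those of all genes in 1 or both sorts. Of all genes, 1.02% were at least 2-fold lower in the CD31-positive sort. In the CD45-negative sort 2.33% of all genes were lower and 1.11% higher. The 3 metallothioneins, which bind zinc and copper, were all at least 2-fold lower in the CD31-positive sort and 0 of them in the CD45-negative sort, with medians of -1.43 and -0.04. Mt1 had a median of 48.5 TP100K in losartan+anti-PD1 cells and 73.97 TP100K in losartan cells of the CD31-positive sort, and highest cells of 159.6 and 1064 TP100K in the same order. Hypoxia and glycolysis genes behaved likewise, with 6 of 26 lower in the CD31-positive sort, 0 lower and 1 higher in the CD45-negative sort, and medians of -0.27 and 0.12. Slc2a1, the glucose transporter, had log2 ratios of -2.85 and 0.33. Cholesterol synthesis genes were lower in both sorts at the median (-0.36 and -0.50), with 1 of 19 past 2-fold in the CD31-positive sort and 2 in the CD45-negative sort. Oxidative phosphorylation genes (63 genes) had medians of 0.28 and 0.10, and ribosomal protein genes (65 genes) -0.09 and -0.07.

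**Figure D5:**
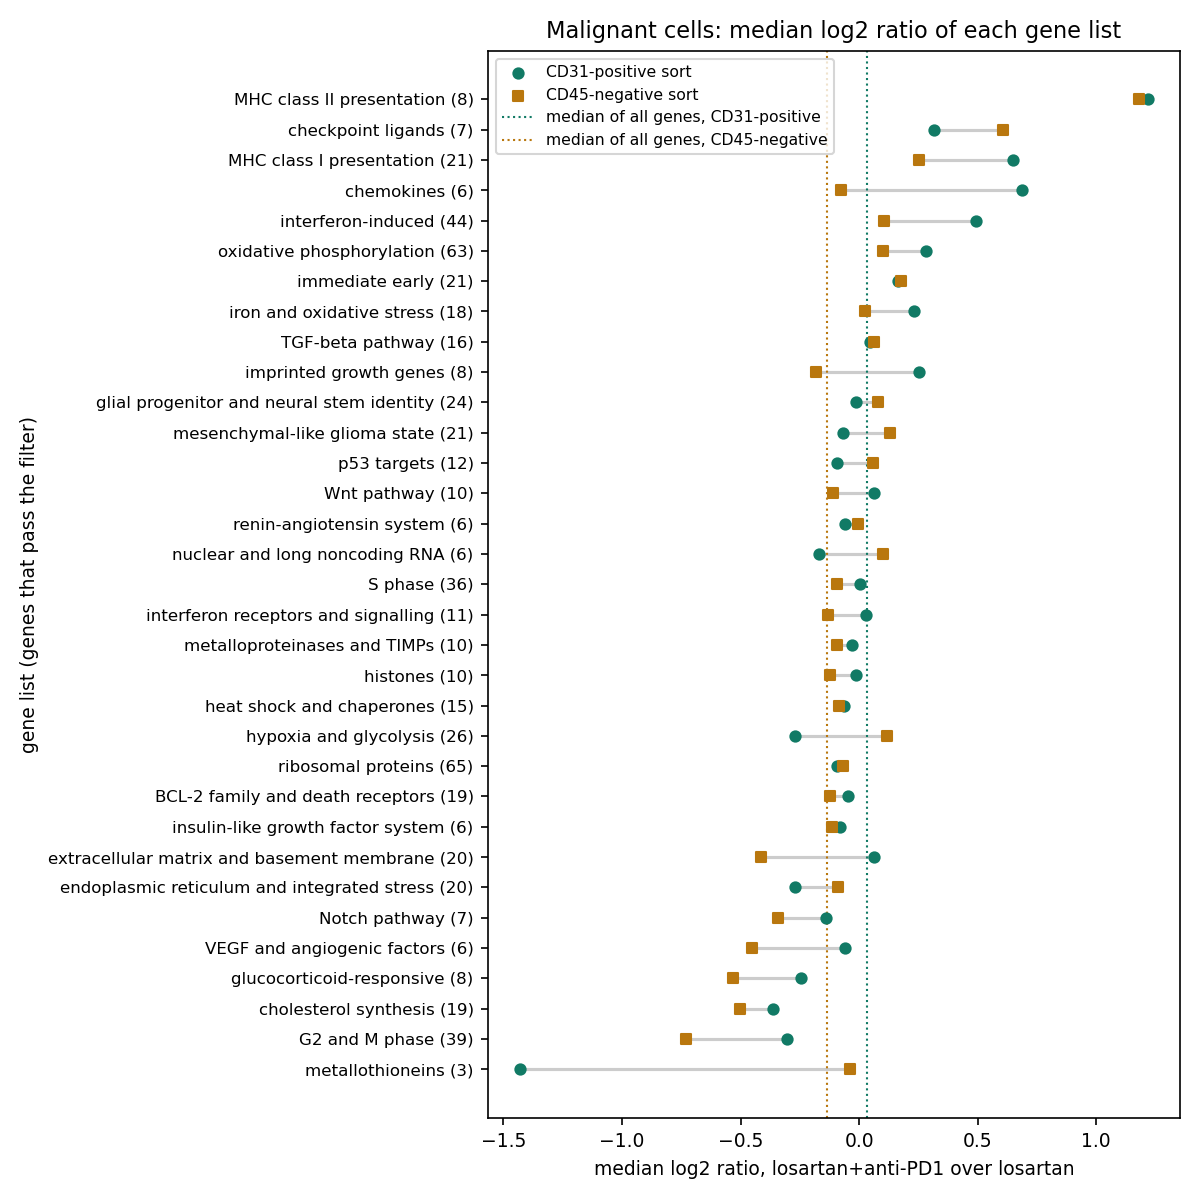
Points give the median log2 ratio of losartan+anti-PD1 over losartan malignant cells for each gene list, with the number of genes that passed the filter in brackets, and dotted lines give the median of all genes in each sort. Class II presentation is the highest of the 33 lists in both sorts, at 1.22 and 1.18, and metallothioneins are low in the CD31-positive sort only, at -1.43 against -0.04 in the CD45-negative sort.

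The target of losartan was barely detected in these cells. Agtr1a, the main angiotensin II type 1 receptor gene of mice, was above 0 in 4 of 51 losartan+anti-PD1 cells (7.84%, interval 2.18 to 18.9%) and 3 of 25 losartan cells (12%, interval 2.55 to 31.2%) of the CD31-positive sort, and in 2 of 44 losartan+anti-PD1 cells (4.55%, interval 0.555 to 15.5%) and 1 of 47 losartan cells (2.13%, interval 0.0539 to 11.3%) of the CD45-negative sort. Agtr1b and Agtr2 were at 0 in every cell of all 4 plates. Of 18 listed genes of the renin-angiotensin system 6 passed the filter, none was past 2-fold in either sort, and their medians were -0.06 and 0.00.

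Malignant cells of control tumors, 33 in the CD31-positive and 49 in the CD45-negative sort, place the values on a wider scale. Comparisons with control share the losartan+anti-PD1 or losartan plates used above and are not independent of them. The 37 higher and 9 lower genes were chosen by their ratios on these same plates. The side of control on which they lie is therefore in part set by that choice. No count over all genes was made to set beside the counts that follow, so they are a description only. With losartan+anti-PD1, 35 of the 37 shared higher genes were above control in both sorts, 14 of them by at least 2-fold in both, and the median log2 ratio over control was 0.93 in the CD31-positive sort and 1.35 in the CD45-negative sort. With losartan, the same genes had a median log2 ratio over control of -0.34 and -0.05, and 0 of 37 were 2-fold above control in both sorts. The 2 exceptions with losartan+anti-PD1 were Gpd1 (-0.14) and Ngfr (-0.26), both below control in the CD31-positive sort. For H2-Aa the mean was 107.9 TP100K in losartan+anti-PD1, 43.2 TP100K in losartan and 28.6 TP100K in control cells of the CD31-positive sort, and 66.9 TP100K in losartan+anti-PD1, 22.4 TP100K in losartan and 19.1 TP100K in control cells of the CD45-negative sort. Cd274 was less clear in the CD45-negative sort, with 11.5 TP100K in losartan+anti-PD1, 4.95 TP100K in losartan and 10.1 TP100K in control cells, where 1 control cell held 40.5% of the signal. The 9 shared lower genes had a median log2 ratio over control of -0.63 and -0.38 with losartan+anti-PD1, and of 0.45 and 0.72 with losartan.

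Anti-PD1 without losartan was represented by only 8 malignant cells in each sort, with fewer genes detected (medians of 5304.5 in the CD31-positive and 3799.5 in the CD45-negative sort). The class II level of these cells had a lowest, median and highest value of 0, 0.161 and 3.41 in the CD31-positive sort and of 0, 0 and 0.534 in the CD45-negative sort, against control medians of 1.75 and 1.89, CD31-positive sort first. The median cell was thus below that of control tumors with anti-PD1 alone and above it with losartan+anti-PD1. H2-Aa was above 0 in 3 of 8 anti-PD1 cells (37.5%, interval 8.52 to 75.5%) and 26 of 33 control cells (78.8%, interval 61.1 to 91.02%) of the CD31-positive sort, and in 0 of 8 anti-PD1 cells (which allows a share of up to 37.5%) and 40 of 49 control cells (81.6%, interval 67.98 to 91.2%) of the CD45-negative sort. The level of interferon-induced genes had a median of 0.627 in anti-PD1 and 1.96 in control cells of the CD31-positive sort, and of 0.176 in anti-PD1 and 2.02 in control cells of the CD45-negative sort. The part of the lower number of genes detected in these values was not tested.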

How the data were processed

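Single cells of GL261 tumors were sequenced by Smart-seq2. The submitters' processing notes name TopHat, Bowtie, RSEM 1.2.8 and build mm10 (the paper gives another RSEM version). In the deposited table, CD31-positive plates hold TPM from the authors' RSEM run, which are per transcript length and carry no depth. CD45-negative plates hold expected counts in the deposited table, although the paper describes TPM for all cells. These are not per length, and 82.2% of those above 0 were exactly whole. Another 578 columns, of other plates, were not used here. Cell type and treatment came from the labels. The cells compared are 167 of 265 malignant cells.

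Each cell was scaled to 100000, and log2 ratios of group means were taken with a pseudocount of 1 TP100K for genes detected in 25% or more of the cells with one or the other treatment. In the CD31-positive sort 134 genes passed 2-fold upward and 101 downward, and in the CD45-negative sort 110 and 231. No test was run, since each group in a sort is 1 plate. The named genes are up to 15 in each direction that passed 2-fold in both sorts with and without the highest cell of each group, list members that passed 2-fold in both sorts, and any gene past 4-fold in opposite directions (0 were). Other genes were named after their values were seen. A gene of these lists is not reported here. The members and lists were chosen with earlier results of these data known. The code was tested on simulated data, 11 planned and 2 added alternatives were run, and doublets were not searched for. Transcripts were compared with BLAST+ 2.17.0, and near-identical means at least 95% identity over at least 50% of the transcript. Gene coordinates and promoters are RefSeq's for GRCm38.p6. Other tools were Python 3.11.15 with SciPy 1.17.1, NumPy 2.4.6, pandas 2.3.3 and matplotlib 3.10.9.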

Additional observations from a re-analysis of the deposited data

Results flagged for a closer look

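A set of 8 genes passed 2-fold in opposite directions in the sorts, which is what flagged them; the difference between sorts was not tested, and none was past 4-fold both ways. Cxcl10 codes for a chemokine that attracts activated T cells. It had a log2 ratio of losartan+anti-PD1 over losartan of 3.65 in the CD31-positive sort and -1.38 in the CD45-negative sort. Without the highest cell of each group the ratios of Cxcl10 were 3.62 and -1.04. It was above 0 in 18 of 51 losartan+anti-PD1 cells and 5 of 25 losartan cells of the CD31-positive sort, and in 17 of 44 losartan+anti-PD1 cells and 13 of 47 losartan cells of the CD45-negative sort, where 1 losartan cell held 55.7% of the losartan signal. Ero1l, an oxidase of the endoplasmic reticulum, had -2.35 in the CD31-positive sort and 1.40 in the CD45-negative sort. Tmem119, a microglia marker in brain that was also above 0 in these cells, had 1.88 and -1.80, and Sparcl1, a matrix glycoprotein, 1.02 and -1.64, or 1.14 and -0.21 without the highest cell of each group. Tnfrsf19 had 1.04 and -1.84, 2810468N07Rik 1.13 and -1.10, and AA467197 -1.06 and 1.14. Without the highest cell of each group Tnfrsf19 had 0.09 and -1.58, 2810468N07Rik 1.25 and -0.79, and AA467197 -0.94 and 0.57. Ly6a, a surface protein also made by endothelial cells, had -1.83 in the CD31-positive sort, where 1 losartan cell held 95.03% of the losartan signal, and 1.57 in the CD45-negative sort. Without the highest cell of each group Ly6a was 1.83 higher in the CD31-positive sort and 1.61 higher in the CD45-negative sort.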

How the results depend on the processing

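The percent of tested genes past 2-fold, for comparison 0.395% higher and 0.096% lower in both sorts, 1.36% higher and 1.02% lower in the CD31-positive sort and 1.11% higher and 2.33% lower in the CD45-negative sort, moved with several settings. With a pseudocount of 0.1 TP100K it was, in the same order, 0.853, 0.672, 5.97, 3.38, 3.81 and 9.17%, and with 10 TP100K 0.064, 0, 0.182, 0.172, 0.152 and 0.0505%. With the mean of log2 values over cells it was 0.224, 0.0213, 0.870, 0.425, 0.374 and 0.707%. That mean kept 17 of the 37 shared higher and 1 of the 9 shared lower genes, and a pseudocount of 10 TP100K kept 6 and 0. In cells with 2000 to 6000 genes (7 losartan+anti-PD1 and 4 losartan cells of the CD31-positive sort, 11 losartan+anti-PD1 and 10 losartan cells of the CD45-negative sort) it was 1.73, 2.42, 15.2, 11.9, 10.1 and 23.8%. These cells kept 19 of the 37 shared higher and 2 of the 9 shared lower genes. A filter at 10% of cells gave 0.132% lower in both sorts, and one at 50% gave 0.0789%, with 1.08% higher and 1.98% lower in the CD45-negative sort. The filter at 50% kept 26 of the 37 and 5 of the 9. Scaling by the 75th percentile gave 1.30% lower in the CD45-negative sort beside 1.02% higher, and turned the split in the CD31-positive sort, with 1.48% lower and 99 genes higher. This scaling kept 25 of the 37 and 8 of the 9. Leaving out the highest cell of each group gave 0.556% lower in the CD31-positive sort. Without cells with markers of 5 other types there were 0.156% lower in both sorts, and 2.70% higher and 5.45% lower in the CD45-negative sort, and 25 of the 37 shared higher and 4 of the 9 shared lower genes were kept. In only the cells with no macrophage or microglia marker there were 0.366% lower in both, 2.22% higher and 3.22% lower in the CD31-positive sort, and 3.91% higher and 7.80% lower in the CD45-negative sort. That setting kept 20 of the 37 shared higher and 2 of the 9 shared lower genes. Leaving out cells with markers of 4 other types (no oligodendrocyte list) kept 34 and 8. The last 2 alternatives were chosen after seeing the data.

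For genes, the ratio nearer to reversal of the 2 sorts is given. Hmox1 became 1.32 without the highest cells, 4.25 in cells with 2000 to 6000 genes and 3.43 without cells with markers of 5 other types. In cells with 2000 to 6000 genes the CD31-positive median of G2 and M phase genes was 0.47, and Col2a1 had -0.99, Mnda -0.92, Serpinf1 -0.26, Zfp961 -0.31, Klk8 -0.32, Gbp8 -0.16, L1cam -0.50, Cdc20 1.28, Dll3 0.24 and Ccnb1 2.49. In cells with no macrophage or microglia marker Zfp961 had -0.88 and Dll3 0.23. The cause was not tested. The class II median stayed between 0.93 and 2.02 in the CD31-positive sort and between 0.90 and 1.98 in the CD45-negative sort under 12 alternatives in the CD31-positive and 13 in the CD45-negative sort. Medians of the CD45-negative sort that crossed 0 were those of interferon-induced genes (-0.26 to 0.27), hypoxia and glycolysis (-0.30 to 0.23), metallothioneins (-0.42 to 0.14) and S phase (-0.63 to 0.01), and in the CD31-positive sort that of S phase also did (-0.08 to 0.62). No paired analysis was possible because the result comes from no test. The number of cells limits the rare genes: a gene at 0 in 25 cells allows a share of up to 12%.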
